A study of Mus musculus with 16 samples.

Results

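Open chromatin was examined at 10 mouse genes that encode WDR5 and proteins that work with it in histone methyltransferase complexes: Wdr5, Rbbp5, Ash2l, Dpy30, Men1, Psip1, Hcfc1, Kdm6a, Cxxc1 and Wdr82. They are 10 of the 21883 protein-coding genes of the mm10 gene table. They were chosen by name, with earlier results of these data known. A gene's locus is the gene with 20 kb on either side, and a gene end peak is a listed peak within 1 kb of either end of the gene. The study profiled mouse embryonic stem cells (ESCs) that carry a GFP knock-in at Rx, an eye field gene, and embryoid bodies grown from them, in 16 ATAC-seq libraries of 8 groups with 2 replicates each. ATAC-seq cuts accessible DNA with a transposase, and each library is represented by its own list of peaks. All ESCs were kept in 2i+LIF, the inhibitor and cytokine medium that holds them undifferentiated. The ESC groups were the parental line, p53 knockout clone C9, p53 knockout clone H9, and Wdr5 and p53 double knockout cells stably transfected with a backbone plasmid, with a WDR5WT plasmid or with a WDR5S91K-Y191F plasmid. C9 and H9 are 1 clone each, and the labels do not say how many clones stand behind the double knockout. Embryoid bodies followed the SFEBq protocol, in which cells aggregate in low-serum-replacement medium (GMEM, 5% KSR), and 2% matrigel was added at day 1. They were parental, taken at day 4 by label, or Wdr5 and p53 double knockout with no plasmid named, for which the labels give no day. Every double knockout library therefore lacks p53 as well as endogenous Wdr5, and those with a WDR5WT or WDR5S91K-Y191F plasmid carry WDR5 from the plasmid. No label ties the replicates to separate cultures, so p-values measure only the spread between these libraries, which may be technical.

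WDR5, RBBP5, ASH2L and DPY30 form the core shared by all mammalian MLL and SETD1 enzymes, which methylate lysine 4 of histone H3 at promoters and enhancers. Menin (Men1) and LEDGF (Psip1) bring MLL1 and MLL2 to chromatin, HCF-1 (Hcfc1) joins these complexes at promoters, UTX (Kdm6a) removes methyl groups from lysine 27 of histone H3 within the MLL3 and MLL4 complexes, and CFP1 (Cxxc1) and WDR82 belong to the SETD1 complexes. In ESCs these complexes are known for keeping active promoters marked, and most of their subunit genes are broadly expressed.

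The sequences before 4 of the genes' starts are shown because the results turn on whether a peak was listed there. Each is the 250 bases before a start site in the RefSeq promoter table (GRCm38.p6, the mm10 assembly), 5′ to 3′ along the gene. Capitals mark matches on either strand to the motifs searched: GCATGCG (NRF1 core), CCGGAAG (ETS), CACGTG (E-box), GGGCGG (GC-box), AAGATGG (YY1), CCAAT and TATAAA.
Wdr5, chr2:27514897-27515146, plus strand: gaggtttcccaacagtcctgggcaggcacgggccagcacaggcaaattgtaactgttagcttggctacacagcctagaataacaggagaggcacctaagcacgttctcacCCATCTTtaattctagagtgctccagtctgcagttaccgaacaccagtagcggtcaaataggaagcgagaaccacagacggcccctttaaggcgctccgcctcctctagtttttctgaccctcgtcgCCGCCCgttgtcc
Rbbp5, chr1:132477117-132477366, plus strand: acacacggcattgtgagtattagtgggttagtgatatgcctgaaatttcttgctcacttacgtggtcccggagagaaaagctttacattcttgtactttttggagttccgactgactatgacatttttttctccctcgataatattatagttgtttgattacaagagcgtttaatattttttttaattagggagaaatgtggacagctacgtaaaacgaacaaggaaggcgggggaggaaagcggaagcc
Kdm6a, chrX:18162325-18162574, plus strand: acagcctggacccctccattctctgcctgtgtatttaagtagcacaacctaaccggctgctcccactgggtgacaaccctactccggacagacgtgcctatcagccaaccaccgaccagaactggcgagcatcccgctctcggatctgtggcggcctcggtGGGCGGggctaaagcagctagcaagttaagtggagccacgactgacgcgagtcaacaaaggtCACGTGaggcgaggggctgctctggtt
Dpy30 outer start, chr17:74323945-74324194, minus strand: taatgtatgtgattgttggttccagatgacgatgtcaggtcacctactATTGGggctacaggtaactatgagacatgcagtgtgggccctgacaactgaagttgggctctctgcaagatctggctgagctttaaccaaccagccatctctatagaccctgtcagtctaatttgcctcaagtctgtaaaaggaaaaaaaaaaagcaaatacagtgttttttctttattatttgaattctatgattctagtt
Dpy30 inner start, chr17:74316434-74316683, minus strand: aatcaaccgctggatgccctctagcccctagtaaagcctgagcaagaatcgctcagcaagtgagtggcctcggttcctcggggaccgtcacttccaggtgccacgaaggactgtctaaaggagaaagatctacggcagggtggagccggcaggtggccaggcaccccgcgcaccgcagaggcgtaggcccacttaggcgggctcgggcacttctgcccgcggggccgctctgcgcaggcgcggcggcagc
The Wdr5 window holds a GC-box 13 bases before the start and a YY1 match 140 bases before it. The Kdm6a window holds an E-box 27 bases and a GC-box 89 bases before its start, and the outer Dpy30 window holds a CCAAT match 202 bases before its start. No motif searched was found in the Rbbp5 or the inner Dpy30 window. Among 21262 promoters of the same length, 42.6% hold the GC-box, 35.4% CCAAT, 6.63% the E-box and 4.13% the YY1 motif, and a match is a description of letters only. The windows also differ in CpG content: 12 CpGs before Wdr5, 10 before Rbbp5, 15 before Kdm6a, and 1 before the outer but 21 before the inner start of Dpy30, against a median of 10 over all promoters.

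The number of listed peaks limits how many genes a list can reach, but does not set that number alone. Cut to 1535 peaks each, the ESC lists reached 1.34% to 7.09% of all genes at an end or start site. ESC lists held 1535 and 2492 peaks with the backbone plasmid, 5174 and 16257 with S91K-Y191F, 24367 and 5330 in the parental line, and between 26305 and 32709 in the 6 lists of C9, H9 and WDR5WT. Embryoid body lists held 75673 to 93646. The widest peak was 18810 to 29214 bp in the parental, backbone and S91K-Y191F lists. It was 7727 to 15921 bp in the C9, H9 and WDR5WT lists. These ranges did not overlap, but the gap between them (15921 to 18810 bp) was smaller than a gap inside the second (9210 to 15914 bp). Whether the lists of these ranges were processed apart is not given and was not tested, and no batch is named in the labels. Several comparisons below, such as backbone against p53 knockout, set lists of different ranges against each other. There such a difference and genotype cannot be told apart. Chromosome 8, which carries Ash2l, held 28.6% and 23.3% of the backbone peaks, 16% and 10.4% of the S91K-Y191F peaks and 5.29% to 11.1% in every other list. In the ESC lists of 16257 peaks or more, 5 to 7 of 8 ESC marker genes and 1 to 5 of 8 early neural and eye field genes had a gene end peak, and in embryoid bodies 7 or 8 and 5 to 8 did. Markers of other cell types reached 1 to 4 of 6 mesoderm, 3 or 4 of 5 endoderm and 0 to 3 of 6 fibroblast genes in the same ESC lists, and 5, 3 or 4, and 4 in embryoid bodies. Trp53, which encodes p53, had an end peak in parental replicate 1, both H9 lists, WDR5WT replicate 2, S91K-Y191F replicate 2 and all 4 embryoid body lists, and the labels do not place its deletion. A peak at a marker shows open DNA and not expression, and the part of other cell types in the results below was not tested.

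Wdr5 (chr2:27515147-27536535, gene ID 140858) is the knocked-out gene, and its start was listed as open in all 4 embryoid body libraries, the double knockouts included. The start peak stood at percentile 79.7 and 72.7 in the parental and 65.2 and 64.5 in the double knockout lists, where the percentile is the share of a list's peaks with a signal no higher. Its fold enrichment, the authors' own value, was 4.6 and 4.27 in the parental and 3.85 and 4.06 in the double knockout lists. Ranks in lists of different lengths show no change, so these values are set side by side without a comparison. The labels do not place the deletion within the gene, so a peak at the start does not check the knockout. Of the 12 ESC lists, a single one, WDR5WT replicate 2, held a Wdr5 start peak, at chr2:27514683-27515646 with a signal of 384 at percentile 35.3. That list is the longest of the ESC lists. The parental, C9, H9, backbone and S91K-Y191F lists held no peak anywhere inside the gene. A peak in this list alone among ESCs is common: 506 of 13394 genes with a gene end peak in all 4 embryoid body lists (3.78%) had it too, and 1371 (10.2%) had an end peak in no ESC list. The genes with the most similar percentiles over the 16 libraries were E430018J23Rik, Dnmbp and Gm7932, whose mean absolute difference from Wdr5 was 0.928, 1.22 and 1.39 percentile points.

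The flanks of Wdr5 were open more often than its start in ESCs. A region at chr2:27505471-27506025, 1632 bp from an end of Brd3 (a bromodomain reader of acetylated histones), was listed in 5 ESC libraries and all 4 embryoid body libraries. A region at chr2:27539752-27540628, 3217 bp past the Wdr5 end and over the small nuclear RNA gene Gm25541, was listed in 7 ESC libraries and all 4 embryoid body libraries. Neither was in a backbone list.

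**Figure D1:**
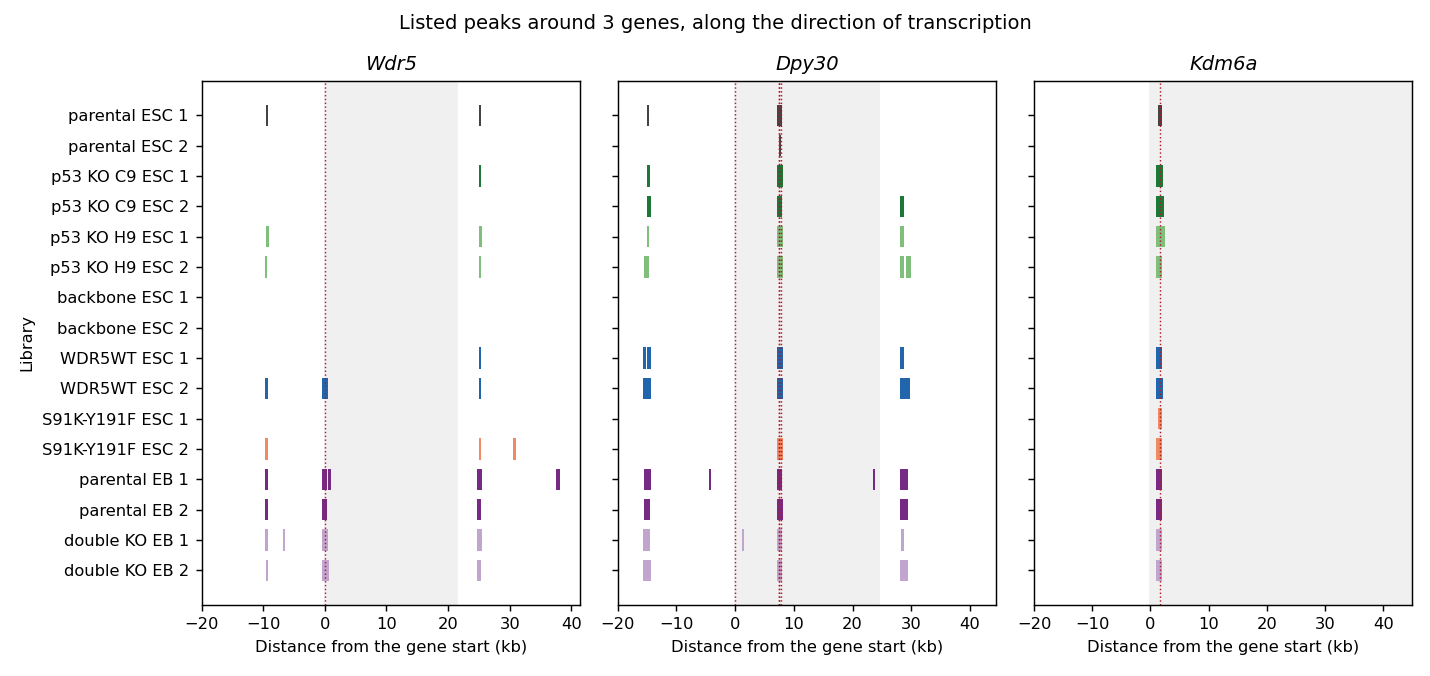
Listed peaks within 20 kb of Wdr5, Dpy30 and Kdm6a in each library, by distance in kb from the gene table's start along transcription. Grey marks the gene (Kdm6a runs on past the right edge), dotted lines mark listed start sites, bars mark peaks, with narrow ones widened to stay visible. The Wdr5 start is bare in 11 of 12 ESC lists, while the inner Dpy30 starts and the Kdm6a start carry a peak in 9 each.

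Rbbp5 (chr1:132477348-132505665), whose protein joins WDR5 to ASH2L, went further than Wdr5: no ESC list held a peak at either end or inside the gene. All 4 embryoid body lists held the start peak, with a percentile of 62.7 and 83.8 in the parental and 68.1 and 68.8 in the double knockout lists. The only ESC peaks in the locus were 2 in parental replicate 1, both upstream of the gene. By end or start peaks 1364 of all genes (6.23%), Rbbp5 included, had this pattern of 4 embryoid body lists and no ESC list. A second gene, Tmem81, has an end 565 bp from an Rbbp5 end.

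Ash2l (chr8:25816000-25847694) encodes the subunit that stimulates the methyltransferase together with RBBP5. Its end peak was listed in 8 of 12 ESC libraries, and was absent from parental replicate 2, both backbone libraries and S91K-Y191F replicate 1, the 4 shortest lists. The percentile was 47.3 in parental replicate 1, 51.8 and 42.7 in C9, 63.3 and 49.9 in H9, 56.8 and 44.3 in WDR5WT and 58.0 in S91K-Y191F replicate 2. In embryoid bodies it was 80.3 and 73.4 in the parental and 78.9 and 71.0 in the double knockout libraries. An inner region at chr8:25840210-25841560, 6134 bp from the nearest gene end, was listed in 6 ESC and 4 embryoid body libraries. The Ash2l end at the other side lies 18 bp from an end of Star, a cholesterol transport gene.

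Dpy30 (chr17:74299474-74323944) encodes the small subunit that docks on ASH2L, and it was open at inner start sites rather than at the end of the gene model. The outer start at 74323944 had no peak within 1 kb in any of the 16 lists. The inner starts at 74316433, 74316394 and 74316211, 7511 to 7733 bp further in, lay under a peak in 9 ESC and all 4 embryoid body lists. The fixed window at gene ends therefore counts Dpy30 in 1 list, and the window at listed start sites counts it in 13. The inner peak ranked 79.3 in parental replicate 1, 21.7 in parental replicate 2, 86.4 and 77.9 in C9, 81.2 and 78.6 in H9, 83 and 77.9 in WDR5WT and 78.7 in S91K-Y191F replicate 2 by percentile. It was at 98.7 and 95.5 in parental and 96.7 and 96.6 in double knockout embryoid bodies. Only the backbone libraries and S91K-Y191F replicate 1, which are the 3 shortest lists, lacked it.

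Men1 (chr19:6334979-6340894) encodes menin, the tumour suppressor that tethers MLL1 and MLL2. Its start peak was low in every ESC list that held it: 37.7 in parental replicate 1, 21.9 and 12.6 in H9, 8.33 and 30.6 in WDR5WT and 15.6 in S91K-Y191F replicate 2. C9 had none in either replicate, although its lists of 26305 and 31782 peaks were longer than the parental list with one. In embryoid bodies the Men1 peak stood at 83.6 and 78.8 in the parental and 77.7 and 84.2 in the double knockout libraries. The median end peak over all genes stood near that, at 80.6 and 80.1 in the parental and 75.7 and 77.5 in the double knockout lists. Map4k2 ends 96 bp from a Men1 end.

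Psip1 (chr4:83455680-83486463), which encodes the chromatin reader LEDGF, was listed more widely than any other of the 10 genes. It had an end peak in 10 of 12 ESC libraries, all but the backbone pair, and in all 4 embryoid body libraries. The percentile was 78.4 and 23.4 in the parental line, 49.4 and 76.9 in C9, 87.4 and 88.4 in H9, 82.3 and 93.2 in WDR5WT, and 4.5 and 60.6 with S91K-Y191F. In embryoid bodies it was 88.2 and 86.4 in the parental and 97.0 and 86.2 in the double knockout lists. In H9 and WDR5WT it was a single wide peak over the gene's upper end, starting between 83485625 and 83485669. In the parental, C9 and S91K-Y191F lists the strongest end peak was narrower and started at 83486381 or later.

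Hcfc1 (chrX:73942792-73966995), the gene of the transcriptional coactivator HCF-1, was the least regular. Its end peak was in both C9 lists (7.94 and 14.6 by percentile), H9 replicate 1 (31.8), both WDR5WT lists (46.7 and 38.5) and S91K-Y191F replicate 2 (34.2). No parental ESC list held it, nor did H9 replicate 2. In embryoid bodies it was at 65.2 and 83.3 in the parental and 61.4 and 57.1 in the double knockout libraries. By end or start peaks just 7 of the 21883 genes, itself included, had its pattern of lists, against 3032 for Ash2l, Cxxc1 and Wdr82.

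Kdm6a (chrX:18160862-18279936), the gene of the UTX demethylase, carried the highest-ranked member peak in 7 of the 10 ESC lists that had any. Its peak lies over a start site at 18162575, 1713 bp inside the gene table's start. The percentile was 77.4 in parental replicate 1, 88.8 and 92.2 in C9, 93.5 and 88.7 in H9, 91.5 and 91 in WDR5WT, and 10.6 and 86.1 with S91K-Y191F. In embryoid bodies it was 95.1 and 97.1 in the parental and 94.8 in each double knockout list. In parental replicate 1 the listed peak was narrower, chrX:18162225-18162884, and lay beyond 1 kb of the gene table's start, so the gene end window missed it there and in S91K-Y191F replicate 1. It was the only peak of its locus in all 13 lists that had it.

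Cxxc1 (chr18:74216212-74221493) encodes CFP1, which binds unmethylated CpG for the SETD1 complexes, and Wdr82 (chr9:106170925-106191706) encodes the subunit that links SETD1 to RNA polymerase II. Both were listed in the same 8 ESC libraries as Ash2l, a pattern held by 13.9% of all genes. The Cxxc1 peak stood at 67.9 in parental replicate 1, 78.4 and 84.3 in C9, 83.9 and 79.0 in H9, 84.6 and 86.3 in WDR5WT and 85.5 in S91K-Y191F replicate 2. The median end peak over all genes stood at 64.6 in parental replicate 1 and 64.4 in S91K-Y191F replicate 2. In the C9, H9 and WDR5WT lists that median was 70.8 to 75.4, and Cxxc1 lay above it in each of the 8 lists. The Wdr82 peak ranked below the Cxxc1 peak in each of the 8 lists, at 26.9 in parental replicate 1, 35.1 and 43.3 in C9, 71.9 and 57.7 in H9, 50.6 and 72.0 in WDR5WT and 18.8 in S91K-Y191F replicate 2. In embryoid bodies Cxxc1 stood at 87.2 and 93.1 in the parental and 79.5 and 87.3 in the double knockout lists, and Wdr82 at 80.7 and 85.3 and at 70.5 and 83.3.

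**Figure D2:**
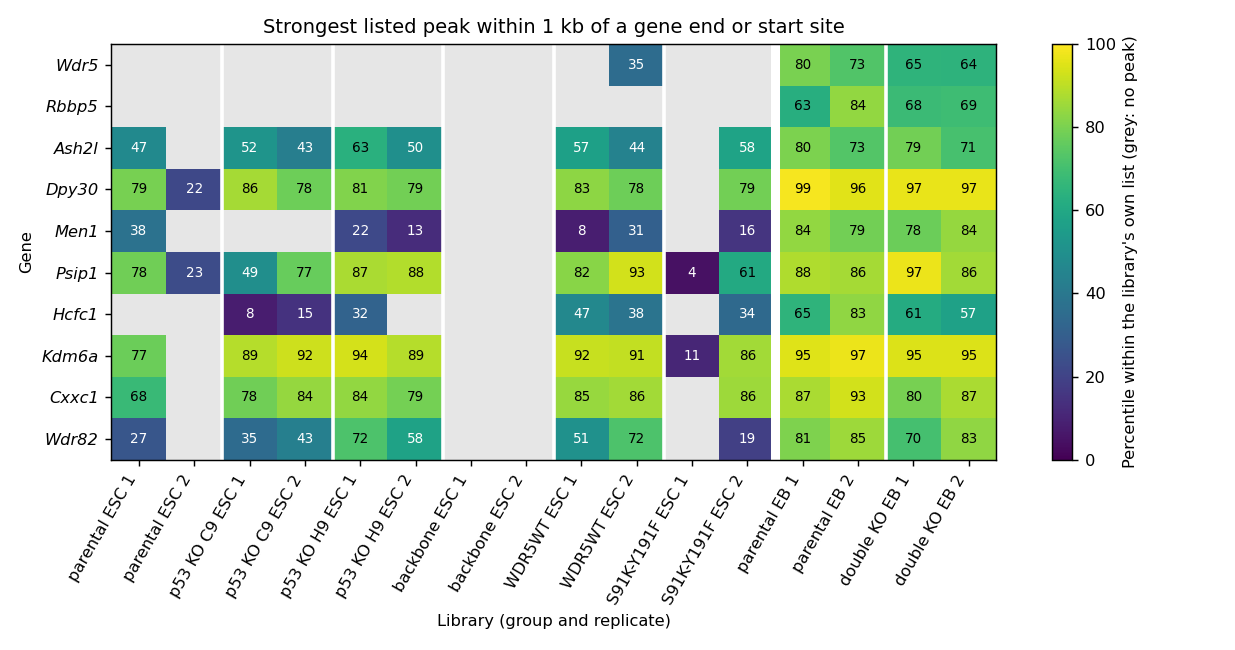
Percentile, within each library's own list, of the strongest peak within 1 kb of a gene end or listed start site, for the 10 genes (rows) in the 16 libraries (columns). Grey cells have no listed peak: both backbone columns are empty, Wdr5 and Rbbp5 are filled almost only in embryoid bodies, and Dpy30 and Kdm6a are the brightest rows there.

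The embryoid body comparison sets double knockout libraries, for which no day is given, against parental libraries of day 4. Genotype and day thus cannot be told apart. None of the 10 genes had a peak in both libraries of 1 genotype and neither of the other. With the gene end window 9 genes had a peak in all 4 libraries and the 10th, Dpy30, in parental replicate 1 only. With start sites added all 10 had one in all 4. Over all genes 0.695% were called in the double knockout only and 0.818% in the parental only, while 61.2% had a gene end peak in all 4. With start sites these shares were 0.64%, 0.713% and 64.9%. The number of the 10 genes with an end peak was 10 and 9 in the parental and 9 and 9 in the double knockout libraries, a difference of -0.5 (two-sided exact permutation test, p = 1.0, smallest possible 0.333).

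The 10 loci held 38 and 35 peaks in parental embryoid bodies and 32 and 32 in the double knockouts. Per 10000 listed peaks this was 4.2 and 4.63 against 4.1 and 3.42, so the groups were kept apart only by 4.2 against 4.1. The difference was -0.656 (exact permutation p = 0.333, the smallest 2 libraries against 2 can give). It shrank to -0.264 at equal list length and to -0.0252 in the upper 50% of each list by −log10 p. Of all genes, 87.2% and 85.9% had a peak in their locus in the parental and 87.7% and 89.3% in the double knockout lists. Of 48 merged regions in these loci 25 were in all 4 libraries and 15 in 1 library only. Double knockout libraries alone held 1, where 4.69% of all merged regions were called in that direction, and parental libraries alone held 2, where 4.27% were. Single libraries moved this count of 3: leaving out parental replicate 2 gave 12, leaving out replicate 2 of the double knockout gave 10, and leaving out parental replicate 1 gave 5.

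The 3 regions lay in 3 loci. At chr1:132488236-132488925, inside Rbbp5 and 10888 bp from its nearest end, the parental lists had a peak at percentile 31.6 and 37.2 with fold enrichments of 3.09 and 3.27. At chr19:6339858-6340424, near the far end of Men1, they had one at 1.86 and 22.7, with fold enrichments of 2.39 and 3.01. At chr18:74197266-74197536 in the Cxxc1 locus, 1967 bp from an end of Ska1, a kinetochore gene, the double knockout lists had one at 57.7 and 69.7, with fold enrichments of 3.66 and 4.24. None of the 3 regions was in any ESC list. The parental-only peaks thus ranked in the lower part of their lists.

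Without Wdr5 and p53, ESCs with the backbone plasmid had no listed peak in any of the 10 loci. The p53 knockout clones, which share the p53 loss, had gene end peaks at 6, 6, 7 and 6 of the 10 genes, and 15, 12, 18 and 18 locus peaks. Ash2l, Psip1, Kdm6a, Cxxc1 and Wdr82 had an end peak in all 4 p53 knockout libraries and neither backbone library, and Dpy30 joined them when start sites were counted. That is 5 of 10 genes, where 34.1% of all genes were called in this direction and 0.228% in the other, or 6 with start sites, where 36.7% and 0.238% were. Of 21 merged regions in the loci 9 were called, all in the p53 knockouts, where 42.8% of all regions were (1.89% in the backbone direction). At member ends or starts lay 6 of the 9. The backbone lists reached few genes of any kind: 1.24% and 4.9% of all genes had an end peak, and 3.37% and 9.95% had any peak within their locus.

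Per library, the backbone mean was 0.0 genes and the p53 knockout mean 6.25 ± 0.5 (SD, n = 4), a difference of -6.25 with no overlap (two-sided exact permutation test, p = 0.0667, the smallest possible, 0.2 after Benjamini-Hochberg adjustment over 9 comparisons). Locus peaks per 10000 listed were 0.0 in both backbone libraries and 5.7, 3.78, 5.85 and 5.78 in C9 and H9, a difference of -5.28 (exact permutation p = 0.0667, adjusted 0.3). Against the parental line, which held 18 and 3 locus peaks (7.39 and 5.63 per 10000), the difference was -6.51 (exact permutation p = 0.333, the smallest possible). There Psip1 was the 1 gene called, beside 7.92% of all genes (0.0183% in the backbone direction), and Dpy30 was added with start sites, beside 8.54% (0.0228%). In that comparison 3 of 18 merged regions in the loci were called (11.6% of all regions, 0.43% in the backbone direction). They lay at the inner Dpy30 starts, the Psip1 end and chr9:106211250-106212244 beyond Wdr82. Leaving out parental replicate 2, the short list, gave 5 genes and 18 regions.

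Set against all 8 ESC libraries with wild-type WDR5, which are the parental, C9, H9 and WDR5WT lists, the backbone pair lay below every one. End peaks were at 0 and 0 genes against 5, 1, 6, 6, 7, 6, 7 and 8, a difference of -5.75 (two-sided exact permutation test, p = 0.0222, the smallest possible, adjusted 0.2). The test permutes single libraries, although each group holds 2 replicates, so it does not test between lines. Pooling these 8 was planned as the only comparison here able to pass the 0.05 threshold. Locus peaks per 10000 differed by -5.82 (exact permutation p = 0.0222, adjusted 0.2). Here and in the backbone comparisons above, dividing by list length does not correct for how few peaks a short list holds. The highest-ranked locus peak of any ESC list stood at rank 2005, and the backbone lists held 1535 and 2492 peaks. Psip1 alone was called, beside 7.69% of all genes (0.0137% in the backbone direction). Dpy30 was called as well with start sites, beside 8.29% (0.0183%). The same 3 regions as against the parental line were called, of 28 in the loci, beside 4.23% of all regions (0.192%). Without parental replicate 2 the counts were 4 genes and 8 regions.

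**Figure D3:**
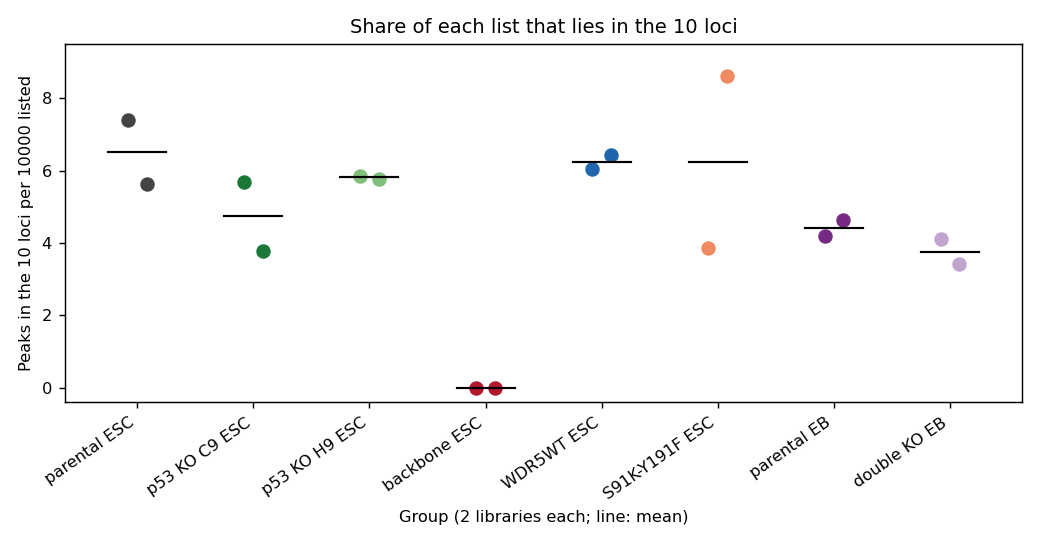
Peaks in the 10 loci per 10000 listed peaks, for the 2 libraries (points) and the mean (line) of each group. Both backbone libraries, with lists of 1535 and 2492 peaks, are at 0. The S91K-Y191F libraries, at 3.87 and 8.61, span more than any other group.

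The difference at the backbone lists moved with list length. Every list was reduced to its 1535 strongest peaks, the length of the shortest. No ESC library of any group then held a peak at any of the 10 genes' ends or starts. The share of all genes reached was 1.34% and 2.8% in the backbone lists and 3.61% to 7.09% in the other ESC lists. With so few genes reached in any list, 0 of 10 genes says little about these genes at that length. The highest-ranked peak of the loci stood at rank 2005 from the top in H9 replicate 1 and lower in every other ESC list. In embryoid bodies it stood at rank 1183 in parental replicate 1 and at 2227, 2372 and 2669 in the others. Cut to the 1535 peaks of backbone replicate 1, every ESC list would thus miss all 10 loci, whereas at the 2492 peaks of backbone replicate 2 the lists of C9 replicate 2, H9 replicate 1, WDR5WT replicate 2 and S91K-Y191F replicate 2 would each keep their highest-ranked peak. A loss of accessibility and a shorter list cannot be told apart at these genes.

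At 5330 peaks, the length of parental replicate 2, 9 ESC libraries could be compared and each held 2 to 4 of the 10 genes, while 13.2% to 21.3% of all genes were reached. Parental replicates 1 and 2 both held Dpy30 and Psip1, though their full lists held 7 and 2 genes. C9 held 2 and 2, H9 3 and 2, WDR5WT 4 and 3, and S91K-Y191F replicate 2 held 3. At 16257 peaks the counts were 6 in parental replicate 1, 5 and 4 in C9, 6 and 6 in H9, 7 and 5 in WDR5WT and 8 in S91K-Y191F replicate 2, while 34.9% to 45.7% of all genes were reached. Embryoid bodies held 5 and 8 in the parental and 4 and 6 in the double knockout lists at that length, while 34.0% and 36.9% and then 31.1% and 29.6% of all genes were reached.

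**Figure D4:**
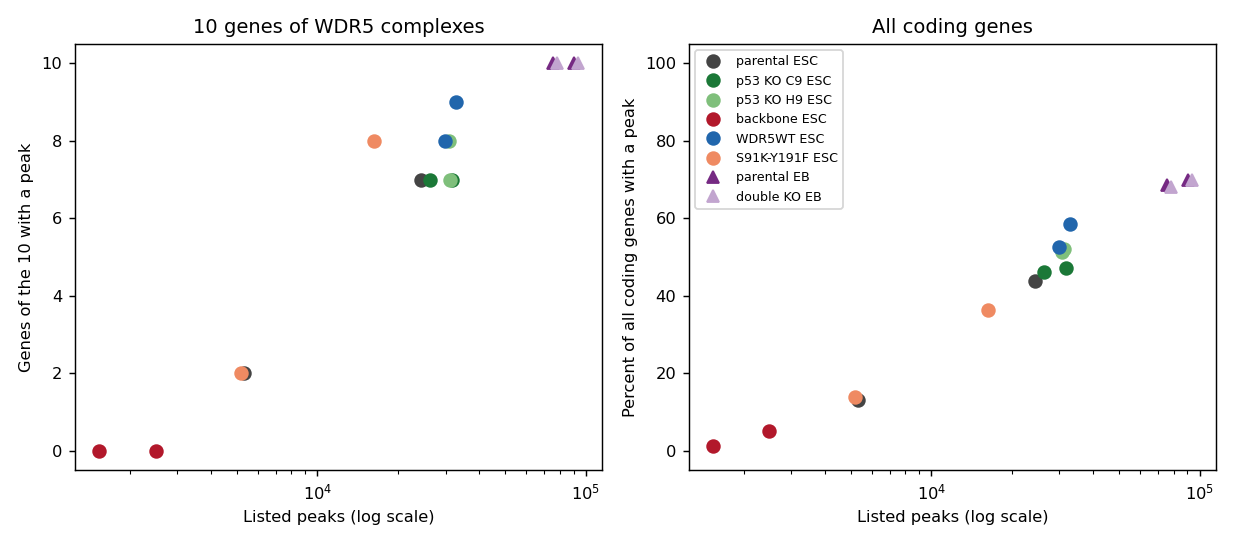
Listed peaks per library (log axis) against the number of the 10 genes with a peak at an end or start site (left) and the percent of all 21883 coding genes with one (right). Circles are ESC and triangles embryoid body libraries, and both panels climb with list length from the backbone lists to the embryoid bodies.

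The p53 knockout clones against the parental ESCs address p53 loss with Wdr5 intact. End peaks were at 6, 6, 7 and 6 genes against 5 and 1, a difference of 3.25 (exact permutation p = 0.0667, adjusted 0.2). With start sites the counts were 7, 7, 8 and 7 against 7 and 2, which overlapped (difference 2.75, exact permutation p = 0.267). Kdm6a was called in the knockouts by the gene end window, beside 4.51% of all genes (0.356% in the parental direction), but not with its own start site counted, when 0 of the 10 genes were called beside 4.79% and 0.37%. Locus peaks per 10000 differed by -1.23 (exact permutation p = 0.533). Of 25 merged regions in the loci 1 was called, in all 4 knockouts and neither parental library, where 11.9% of all regions were (2.44% in the parental direction). It was chr4:83500267-83500887 in the Psip1 locus, 13804 bp from the Psip1 end. Without parental replicate 1 there were 4 genes and 6 regions, without parental replicate 2 there were 5 regions, without H9 replicate 2 there were 2 genes and 2 regions, and without either C9 library 2 regions.

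Wild-type WDR5 added back to the double knockout went with peaks at most of the 10 genes. End peaks were at 7 and 8 genes with WDR5WT and at 0 and 0 with the backbone plasmid, a difference of 7.5 (two-sided exact permutation test, p = 0.333, the smallest possible). Ash2l, Men1, Psip1, Hcfc1, Kdm6a, Cxxc1 and Wdr82 were called, 7 of 10, where 43.7% of all genes were (0.219% in the backbone direction), and Dpy30 made 8 with start sites, where 46.7% were (0.228%). Of 22 merged regions in the loci 16 were called, all in WDR5WT (64.8% of all regions, and 2.19% in the backbone direction). They were 8 at member ends or starts, 4 at other genes' ends and 4 elsewhere. Rbbp5 was without a peak in both WDR5WT lists. Against the p53 knockout clones, WDR5WT differed by 1.25 genes (exact permutation p = 0.133). In either direction 0 genes were called, beside 1.14% and 0.119% of all genes, or 1.2% and 0.096% with start sites. Of 25 merged regions in the loci 0 were called, beside 3.25% and 1.85% of all regions. Without WDR5WT replicate 1 this became 1 gene and 4 regions, and without WDR5WT replicate 2 it became 1 region.

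With S91K-Y191F WDR5 the 2 replicates went apart. End peaks were at 1 and 7 genes and locus peaks were 2 and 14, or 3.87 and 8.61 per 10000, so replicate 2 had the highest value of the 16 libraries and replicate 1 a value close to C9 replicate 2, the lowest ESC value above 0. Against the backbone plasmid the difference was 4.0 genes (exact permutation p = 0.333), and Psip1 was called, beside 8.32% of all genes (0.0% in the backbone direction), with Kdm6a added when start sites were counted, beside 8.96% (0.00457%). Their start regions were the 2 regions called, of 14 in the loci, beside 15.6% of all regions (0.408%). Without replicate 1, whose list held 5174 peaks, 7 genes and 14 regions were called instead of 1 and 2. Against WDR5WT no gene was called, beside 15.9% of all genes listed in WDR5WT alone and 0.366% the other way (16.8% and 0.375% with start sites), and the difference was 3.5 genes (exact permutation p = 0.667). In 3 of 23 regions a peak was listed in both WDR5WT libraries alone, beside 34.4% of all regions (2.45% the other way). They lay at Memo1 and Spast in the Dpy30 locus and at Twf2 in the Wdr82 locus, all at other genes' ends. Without S91K-Y191F replicate 2 there were 6 genes and 14 regions, without WDR5WT replicate 1 there were 1 gene and 7 regions, and without WDR5WT replicate 2 there were 6 regions.

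Over all 16 lists the 10 loci held 52 merged regions, 29 found in ESCs and 48 in embryoid bodies. At member ends or starts were 14, at the ends of other coding genes 8, and away from both 30. In all 4 embryoid body libraries were 25 (48.1%, against 25.9% of all merged regions), which were 10 of the 14, 6 of the 8 and 9 of the 30. Of the regions in ESCs, 13.8% were in no embryoid body list, against 28.3% over all regions. All merged regions include those far from any gene, so these shares were not matched for distance to genes. The 4 regions seen in ESCs alone all lay away from gene ends, and 18 of the 52 were in 1 list only. The region at chr9:106211226-106212472, beyond the Wdr82 gene and 2915 bp from an end of Twf2, was the most widely listed of those away from gene ends, in 9 ESC and all 4 embryoid body libraries. It was also the strongest locus peak in both parental ESC lists, with a signal of 951 and 305.

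A list of 30 other subunits and partners of WDR5 complexes, acetyltransferase complexes included, gave a similar order, and so did all genes. The share of all genes with an end peak was 40.8% and 12.4% in parental ESCs, 43.0% and 44.3% in C9 and 48.2% and 48.8% in H9. It was 1.24% and 4.9% with the backbone plasmid, 49.4% and 54.9% with WDR5WT and 13.1% and 33.8% with S91K-Y191F. In embryoid bodies it was 64.6% to 66.7%. Gene end peaks were at 21 and 6 of the 30 in parental ESCs, 21 and 22 in C9, 23 and 23 in H9, 0 and 2 with the backbone plasmid, 25 and 28 with WDR5WT, 6 and 20 with S91K-Y191F and 28 in each embryoid body library. Between backbone and p53 knockout ESCs 17 of 30 were called in the knockouts, among them Bod1l, Chd8 and Dr1, and between WDR5WT and backbone 23 were called in WDR5WT, beside the 34.1% and 43.7% of all genes above. Between the embryoid body genotypes 0 of 30 were called. By end or start peaks the methyltransferase genes were unlike one another: Kmt2b was listed in 9 ESC libraries, Kmt2c and Setd1a in 8, Kmt2d in 6, Kmt2a in 5 and Setd1b in none, and Setd1b was absent from embryoid bodies too. Phf20, a subunit of the NSL acetyltransferase complex, was listed in 8 ESC libraries and no embryoid body library.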

How the data were processed

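ATAC-seq peak lists of 16 mouse libraries were analysed, 1 list per library. The submitters' processing notes name build mm10 and, among other tools, the aligner Bowtie2 2.3.5 and the peak callers MACS2 2.1.2 and Genrich 0.6. Which tool made which list is not given in the sources used here. Each ESC list as deposited gives a score, a signal (lowest value 200, scaling not given in the sources used here) and a −log10 p. Each embryoid body list as deposited gives a score, a fold enrichment ratio and −log10 p and q values. Peak values are the authors' own and were used only to rank or describe peaks within a list. The lists hold no read counts, so depth is unknown and no interval can be given.

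Only peaks on the 19 autosomes and the sex chromosomes entered. Gene ends came from the RefSeq table of GRCm38.p6 and start sites from its promoter table, which matched 7 of the 10 genes. A gene or merged region (overlap of at least 1 bp) was called when both or all libraries of a group listed it and the other group's libraries did not, with no test of its own. Two-sided exact permutation tests compared per-library numbers, with Benjamini-Hochberg adjustment over 9 comparisons that share libraries. Computations used Python 3.11.15, numpy 2.4.6 and pandas 2.3.3 and were tested on simulated lists. By rule the text names all 10 genes, neighbours ending within 1 kb of them, the 3 genes nearest to Wdr5 by mean absolute percentile difference, and up to 3 called genes per comparison of the 30 other subunits, in alphabetical order. The genes and lists were chosen with earlier results of these data known. Counting start sites beside gene ends, and list lengths other than the shortest, were chosen after seeing the data. Trp53, Phf20, the methyltransferase genes and some regions were singled out after their values were seen.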

Additional observations from a re-analysis of the deposited data

Results flagged for a closer look

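Among the 4 p53 knockout ESC libraries, H9 replicate 1 stood apart from the other 3 with gene end peaks at 7 of the 10 genes against 6, and at 8 against 7 with start sites counted, a gap of 1 gene. C9 replicate 2 stood apart with 3.78 locus peaks per 10000 listed peaks against 5.7 to 5.85. Among the 8 ESC libraries with wild-type WDR5, parental replicate 2, the list of 5330 peaks, was far below the others with 1 gene against 5 to 8, with 2 against 7 to 9 when start sites were counted, and with a Dpy30 peak at the 21.7th percentile against 77.9 to 86.4. These 6 came from 16 sets of values checked for 1 library far from the rest (Dixon's ratio at 95%). For continuous values chance gives about 1 in 20, but this rate does not hold for small counts with ties. Where the other 3 counts were equal, as for H9 replicate 1, any gap is flagged. Several of the sets count the same peaks.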

How the results depend on the processing

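Without read counts, depth limits every comparison of ESC lists. Of 399 values recomputed under other settings, 302 kept direction and side of the threshold (counts within 1.5 times), 70 counts moved further, 15 differences that had missed the threshold fell to 0, 7 tests passed the threshold no longer and 5 differences changed sign. Where no value below shows it, the cause was not tested. At the length of the shortest list compared, 1535 peaks where backbone lists enter, the backbone pair differed from the 8 libraries with wild-type WDR5 by 0.0 genes and 0.0 peaks per 10000 (exact permutation p = 1.0), because no ESC list held a locus peak that high. The same 0.0 and 0.0 were found against p53 knockout, parental, WDR5WT and S91K-Y191F, and calls fell to 0 genes and 0 regions in all 5 comparisons. At 5330 peaks p53 knockout against parental gave 2 regions, and at 5174 peaks WDR5WT against S91K-Y191F gave 0 regions and 1.93 per 10000 (from -0.00619). In embryoid bodies the difference of -0.5 genes, which rests on Dpy30, was 0.0 at equal length (75673 peaks), in the upper 50%, with windows of 500 and 2500 bp and with start sites alone or added, and it ran from -1.0 (without parental replicate 2) to 0.0 (without parental replicate 1) when 1 library was left out.

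In the upper 50% of each list by −log10 p, the backbone pair differed from the 8 libraries by -3.38 genes (exact permutation p = 0.0667), with 0 genes and 0 regions called. Genes and regions called were 3 and 5 for backbone against p53 knockout, 0 and 1 against parental, 4 and 8 against WDR5WT, and 0 and 0 against S91K-Y191F. Regions were 0 for p53 knockout against parental (0.282 per 10000, from -1.23), 1 for WDR5WT against S91K-Y191F (2.19 per 10000) and 2 for WDR5WT against p53 knockout.

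A flank of 50 kb gave 11 regions in embryoid bodies, 14 for backbone against p53 knockout, 6 against parental, 26 against WDR5WT, 4 against S91K-Y191F and 6 against the 8 libraries, 2 for p53 knockout against parental, and 8 and 1 for WDR5WT against S91K-Y191F and p53 knockout. A flank of 10 kb gave 0 for p53 knockout against parental and 1 for WDR5WT against S91K-Y191F. Start sites alone gave 3 genes for backbone against p53 knockout and 0 for p53 knockout against parental, where windows of 500 and 2500 bp and added start sites also gave 0. Added start sites gave 2 genes for backbone against parental, S91K-Y191F and the 8 libraries, and the 2500 bp window 2 for S91K-Y191F.

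Leaving out 1 library at a time gave 0 to 1 genes and 4 to 12 regions in embryoid bodies, 1 to 5 and 3 to 18 for backbone against parental (highest without parental replicate 2), and 1 to 4 and 1 to 6 for p53 knockout against parental (highest without parental replicate 1). It gave 1 to 7 and 2 to 14 for S91K-Y191F against backbone (highest without S91K-Y191F replicate 1), and 0 to 6, 4 to 14 and -2.38 to 2.37 per 10000 for WDR5WT against S91K-Y191F (0.182 without WDR5WT replicate 1; highest without S91K-Y191F replicate 2). It gave 0 to 1 and 0 to 4 for WDR5WT against p53 knockout, and 1 to 4 and 3 to 8 for backbone against the 8 libraries (highest without parental replicate 2). There the differences were -6.43 to -5.43 genes and -6.12 to -5.6 per 10000, and without either backbone library they were -5.75 and -5.82 (exact permutation p = 0.111, the smallest then possible).

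Permuting labels within replicate number, as a replicate block, moved no test across the threshold: -5.75 genes and -5.82 per 10000 had an exact permutation p of 0.04, and the 18 tests ran from 0.04 to 1.0. The numbers do not pair the libraries, since deviations of same-numbered ESC libraries correlated between -0.51 and 0.073 over 15 pairs of groups and embryoid bodies at -0.045.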
